A study of Mus musculus with 17 samples.

Results

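Epcam, Cdh1, Krt7, Krt8, Krt18, Krt19, Cldn4 and Cldn7 are genes of epithelial keratins and cell junctions, and they were followed in RNA-Seq of lung cells grown under fibroblast culture conditions. They are the rows of the count matrix that carry these 8 symbols, of 55421 genes in all, and each was found once. All 8 passed the filter on low counts that left 10481 genes. The cultures came from mice with both Ephb4 alleles floxed and a Col1a2-driven, tamoxifen-inducible Cre. At 4 weeks of age the mice were injected on 5 days with 1 mg/day of 4-hydroxytamoxifen, which removes Ephb4 in cells that express Col1a2 (Ephb4 CKO), or with corn oil (Ephb4 control). At 6 weeks they were given bleomycin at 1.2 U/kg, a drug that injures the lung, or PBS, into the trachea. Lungs were taken on day 14 and their cells were passaged once in medium with 10% serum. The Ephb4 control arm had 4 mice on PBS and 4 on bleomycin, the Ephb4 CKO arm 5 on PBS and 4 on bleomycin, with 1 library per mouse. Col1a2 drives the Cre in fibroblasts, so the deletion is not directed at epithelial cells, and every group carries the floxed alleles.

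Epithelial cells line the airways and alveoli of the lung and are held together by junctions that fibroblasts lack or build from other proteins. Epcam is a surface adhesion molecule used to sort epithelial cells, and Cdh1 is E-cadherin, the calcium-dependent adhesion molecule of adherens junctions. Keratins form intermediate filaments only as pairs of a type II chain (Krt7, Krt8) with a type I chain (Krt18, Krt19), and these 4 are the chains of simple, single-layered epithelia. Claudins set the permeability of tight junctions. Lung digests hold every cell type, and these genes were read as a measure of epithelial RNA in the cultures, although mesothelial cells also carry several of them. In bulk RNA, fewer epithelial cells and less of these transcripts per cell cannot be told apart.

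Libraries held 66540022 to 120554468 counts, with a median of 93075927. In 3 libraries (mouse 2 of the Ephb4 control bleomycin group, mice 1 and 2 of the Ephb4 CKO bleomycin group), Xist and the Y-linked genes went against the labelled sex. Ephb4, the targeted gene, was at 15.5 ± 14.8 CPM in the Ephb4 control PBS group and 39.4 ± 21.7 CPM in the Ephb4 control bleomycin group (SD, n = 4 each). With Ephb4 CKO it was at 9.31 ± 7.38 CPM after PBS (SD, n = 5) and 9.66 ± 3.71 CPM after bleomycin (SD, n = 4), and the ranges of Ephb4 CKO and control libraries overlapped. The label of the cells was checked against marker lists. The summed level of 14 fibroblast markers was 48.5 to 7691 CPM in Ephb4 control PBS, 5930 to 13620 CPM in Ephb4 control bleomycin, 90.5 to 2268 CPM in Ephb4 CKO PBS and 80.6 to 1942 CPM in Ephb4 CKO bleomycin libraries. That of 19 macrophage markers was 11040 to 48120, 1542 to 23240, 24040 to 45420 and 25230 to 44540 CPM in the same order. In these lists, Fbln1 and Tcf21 of fibroblasts were at no more than 3 counts in 2 and 7 libraries, and every macrophage gene was above that in every library. The macrophage sum was above the fibroblast sum in every library but Ephb4 control bleomycin mouse 1. Much of the macrophage sum was Lyz2, whose group means were 23310, 10690, 20880 and 23880 CPM in the same order. The group means of the whole sum were 33230, 15750, 34690 and 36370 CPM. The fibroblast sum had group means of 2240, 10110, 1025 and 774 CPM in the same order. Without Lyz2 the mean macrophage sum would lie below the fibroblast mean in Ephb4 control bleomycin and above it in the other groups. How the 2 sums compare without Lyz2 in single libraries was not examined.

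The promoter sequences of an adhesion gene, a keratin and a claudin are shown because the levels of the 8 genes varied together from library to library. RefSeq promoter windows (GRCm38.p6, 250 bases before to 50 after the transcription start) were held for 6 of the 8 genes, namely Epcam, Krt7, Krt8, Krt18, Cldn4 and Cldn7. The bases upstream of the annotated gene start are printed in the direction of transcription. Capitals mark, on either strand, the E-box CACCTG, which Snail and Zeb repressors of epithelial genes are known to bind, the GC box GGGCGG bound by Sp1, and the AP-1 site TGACTCA.
Epcam, chr17:87635729-87635978, forward strand: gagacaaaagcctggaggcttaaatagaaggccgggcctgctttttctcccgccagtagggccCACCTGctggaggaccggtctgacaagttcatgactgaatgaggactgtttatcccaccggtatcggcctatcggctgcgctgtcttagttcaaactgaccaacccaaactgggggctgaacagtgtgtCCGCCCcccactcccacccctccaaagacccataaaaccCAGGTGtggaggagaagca
Krt18, chr15:102027966-102028179, forward strand: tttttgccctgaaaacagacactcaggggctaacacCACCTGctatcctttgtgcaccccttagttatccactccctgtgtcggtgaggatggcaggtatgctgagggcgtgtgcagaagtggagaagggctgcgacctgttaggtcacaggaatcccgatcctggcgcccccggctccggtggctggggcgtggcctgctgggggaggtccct
Cldn4, chr5:134946935-134947184, reverse strand: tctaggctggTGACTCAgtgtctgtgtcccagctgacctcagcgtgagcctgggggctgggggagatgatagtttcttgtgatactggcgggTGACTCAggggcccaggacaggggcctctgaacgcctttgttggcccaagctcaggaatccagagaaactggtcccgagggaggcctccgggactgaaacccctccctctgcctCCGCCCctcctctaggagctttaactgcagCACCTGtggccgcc
CACCTG was present in all 6 genes with a window (6 of their 7 windows, since Cldn7 has more than 1), against 20.2% of 32851 mouse promoters of the same length. Counted from the transcription start, it lay at -187 and -19 in Epcam, -44 in Krt7, -111 in Krt8, -214 in Krt18, -14 and 11 in Cldn4, and -97 and -57 in the second window of Cldn7. GGGCGG was present in 4 genes (35.7% of all promoters). TGACTCA was present in Cldn4 alone of the 6 (5.2%), TATAAA in Krt8 alone (13.6%), and the grainyhead site AACCGGTT in 0 (0.146%). Both strands were searched, no match to one motif overlapped a match to another, and a match is a description of the sequence only.

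Epcam (ENSMUSG00000045394, chromosome 17, 87635979 to 87651129 in GRCm38, forward strand) was measured as CPM, its count relative to the library size after TMM scaling. In Ephb4 control mice given PBS it was at 121, 32.1, 84.6 and 4.98 CPM in mice 1 to 4, and in those given bleomycin at 75.8, 13.5, 20.3 and 23.3 CPM. The Ephb4 CKO libraries held, after PBS, 5.37, 124, 34.1, 21.1 and 7.23 CPM, and after bleomycin 32.4, 1.81, 65.6 and 13.6 CPM. Every group held both a library with much Epcam and one with little, and all 4 ranges overlapped. The group means were 60.5 ± 51.9 (SD, n = 4), 33.2 ± 28.6 (SD, n = 4), 38.5 ± 49.5 (SD, n = 5) and 28.3 ± 27.8 CPM (SD, n = 4), so the spread inside a group was about as large as its mean.

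Cdh1 (ENSMUSG00000000303, chromosome 8 from 106603351 to 106670246, forward strand) was at 207, 80.0, 126 and 33.7 CPM in Ephb4 control mice 1 to 4 given PBS and at 99.4, 26.9, 38.7 and 56.6 CPM in those given bleomycin. In Ephb4 CKO mice it was at 26.5, 253, 147, 72.2 and 24.5 CPM after PBS and at 51.4, 4.54, 180 and 39.1 CPM after bleomycin. The order of the libraries largely followed that of Epcam (rho 0.94), but the spread was narrower. The highest library held 55.7 times as much Cdh1 as the lowest, the smallest such ratio of the 8 genes, against 68.8 times for Epcam.

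Of the type II keratins, Krt8 (ENSMUSG00000049382, chromosome 15 from 101996698 to 102004482, reverse strand) was at 831, 126, 242 and 43.9 CPM in Ephb4 control PBS and at 462, 75.1, 167 and 169 CPM in Ephb4 control bleomycin libraries. In Ephb4 CKO libraries it was at 33.7, 972, 158, 96.9 and 64.1 CPM after PBS and at 189, 10.9, 322 and 110 CPM after bleomycin. Ephb4 CKO PBS mouse 2 and Ephb4 control PBS mouse 1 stood above all others. Krt7 (ENSMUSG00000023039, chromosome 15 from 101411043 to 101430313, forward strand) was at 670, 204, 196 and 22.6 CPM in Ephb4 control PBS and at 298, 36.2, 86.0 and 83.2 CPM in Ephb4 control bleomycin libraries. In Ephb4 CKO libraries it was at 23.0, 836, 163, 76.9 and 31.0 CPM after PBS and at 157, 8.66, 385 and 58.4 CPM after bleomycin. Its range was the widest of the 8 genes, with a highest value 96.5 times the lowest.

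The type I keratins, their partners, had the same extremes. Krt18 (ENSMUSG00000023043, chromosome 15 from 102028180 to 102032027, forward strand), whose product pairs with that of Krt8 and whose gene lies 23.7 kb from it, was at 532, 121, 156 and 22.2 CPM in Ephb4 control PBS and at 297, 42.0, 117 and 114 CPM in Ephb4 control bleomycin libraries. In Ephb4 CKO libraries it was at 27.0, 641, 124, 57.2 and 33.0 CPM after PBS and at 130, 8.07, 231 and 59.9 CPM after bleomycin. Library by library, Krt18 ranked much as Krt8 did (rho 0.97). Krt19 (ENSMUSG00000020911, chromosome 11 from 100140810 to 100148665, reverse strand) was at 267, 161, 201 and 28.4 CPM in Ephb4 control PBS and at 158, 30.6, 60.6 and 61.2 CPM in Ephb4 control bleomycin libraries. In Ephb4 CKO libraries it was at 10.97, 363, 181, 48.2 and 35.0 CPM after PBS and at 77.0, 4.53, 299 and 56.5 CPM after bleomycin. Krt8 has a processed pseudogene, Krt8-ps, that matched it over 941 bases at 98.6% identity. The pseudogene held at most 2.57% of the Krt8 count in any library, and its counts and those of Krt8 may be split uncertainly. No other gene matched a member over at least 200 bases at 95% identity.

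Of the claudins, Cldn4 (ENSMUSG00000047501, chromosome 5 from 134945119 to 134946934, reverse strand) was at 430, 92.3, 158 and 12.7 CPM in Ephb4 control PBS and at 240, 43.7, 82.5 and 97.5 CPM in Ephb4 control bleomycin libraries. In Ephb4 CKO libraries it was at 20.6, 435, 98.7, 47.3 and 24.0 CPM after PBS and at 93.1, 5.41, 204 and 36.1 CPM after bleomycin. Cldn7 (ENSMUSG00000018569, chromosome 11 from 69964779 to 69967885, forward strand) was at 28.9, 6.28, 12.02 and 1.38 CPM in Ephb4 control PBS, at 14.6, 2.71, 3.56 and 4.29 CPM in Ephb4 control bleomycin, at 1.93, 36.9, 6.03, 4.19 and 2.24 CPM in Ephb4 CKO PBS and at 7.24, 0.554, 11.7 and 2.87 CPM in Ephb4 CKO bleomycin libraries. Its lowest value rested on 59 counts and its highest on 2340, so counting error was small beside the differences between mice.

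**Figure D1:**
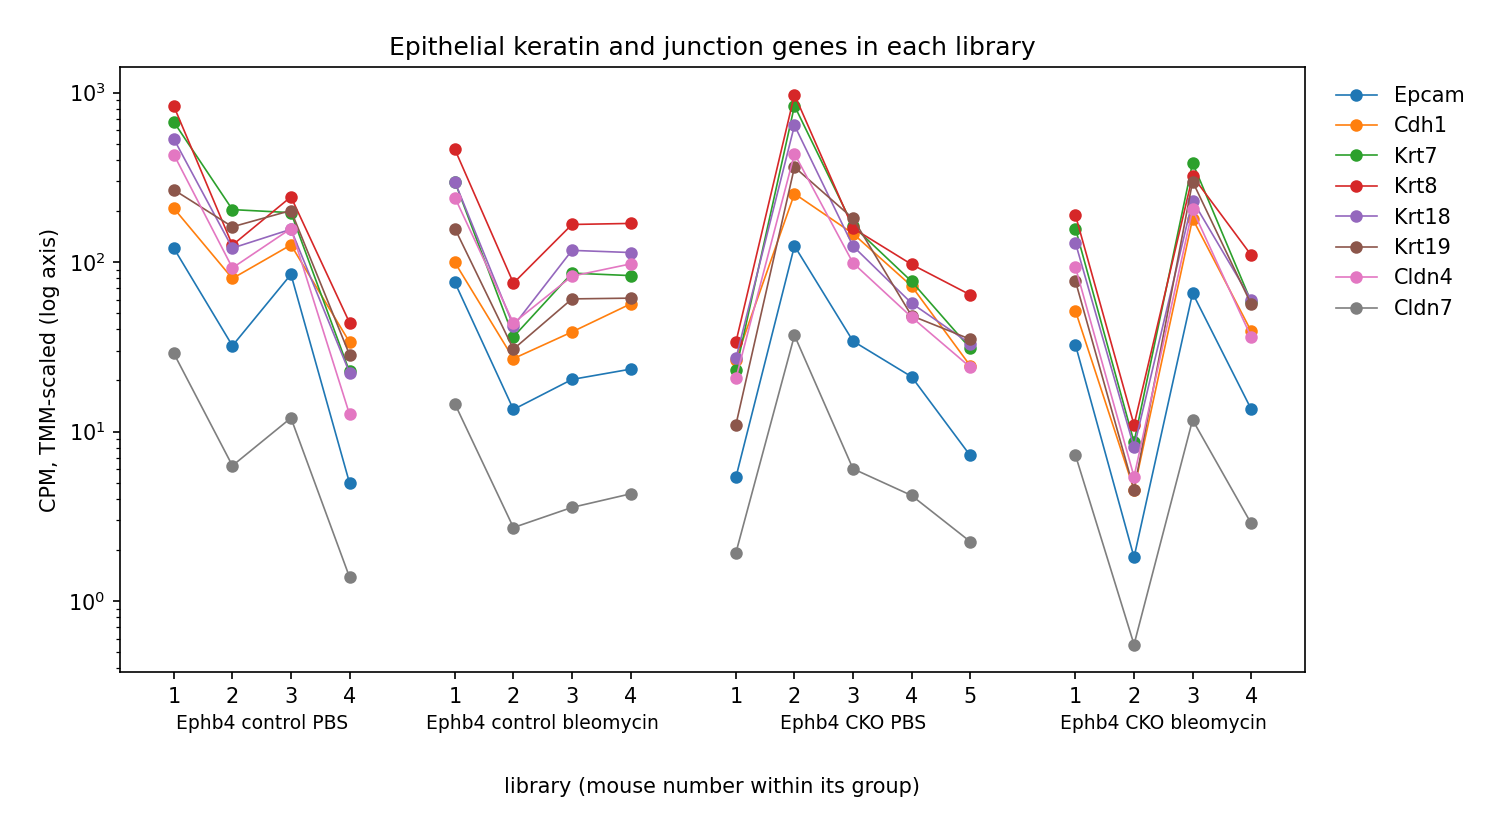
CPM of the 8 genes (log axis) in each of the 17 libraries, arranged by group, where a point is 1 library and lines join the libraries of a group only to guide the eye. The 8 genes vary together, with Ephb4 CKO PBS mouse 2 highest and Ephb4 CKO bleomycin mouse 2 lowest for each of them.

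Ephb4 CKO PBS mouse 2 was the highest and Ephb4 CKO bleomycin mouse 2 the lowest library for all 8 genes. Summed over the 8 genes, the level ranged from 44.5 to 3661 CPM. The sum was 1314 ± 1253 CPM in Ephb4 control PBS (SD, n = 4), 775 ± 599 CPM in Ephb4 control bleomycin (SD, n = 4), 1074 ± 1477 CPM in Ephb4 CKO PBS (SD, n = 5) and 714 ± 714 CPM in Ephb4 CKO bleomycin libraries (SD, n = 4). The 5 libraries with the largest sums were Ephb4 CKO PBS mouse 2, Ephb4 control PBS mouse 1, Ephb4 CKO bleomycin mouse 3, Ephb4 control bleomycin mouse 1 and Ephb4 control PBS mouse 3, and they came from all 4 groups.

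Levels of different genes were compared per kilobase of the longest protein-coding transcript. On this scale the median over the 17 libraries was 81.6 CPM per kb for Krt18, 80.8 for Krt8, 50.8 for Cldn4, 38.9 for Krt19, 21.01 for Krt7, 12.8 for Cdh1, 11.4 for Epcam and 3.21 for Cldn7. Not every step in that order was stable. Krt8 was above Krt18 in 13 of the 17 libraries although its median was lower, Cldn4 was above Krt19 in 9 and below it in 8, and Cdh1 was above Epcam in 10 and below it in 7. In contrast, Krt8 was above Cldn4, Krt19 above Krt7 and Epcam above Cldn7 in all 17 libraries, and Krt7 was above Cdh1 in 15.

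The proportions between the genes varied far less than their levels. The ratio of Krt8 to Krt18 per kb ranged from 0.764 to 1.45, a 1.90-fold range, and that of the summed type II to the summed type I keratins from 0.600 to 1.09. Across the same libraries the keratins themselves spanned 79.4-fold (Krt18) to 96.5-fold (Krt7). Of the 8 ratios computed, which did not cover every pair of members, that of Cdh1 to Epcam had the widest range. This ratio ranged 5.17-fold, from 0.604 in Ephb4 control bleomycin mouse 1, which had the lowest macrophage sum, to 3.12 in Ephb4 control PBS mouse 4, which had the highest. Over the 17 libraries the ratio had a Spearman rho of 0.67 with the mean log2 CPM of the macrophage markers and of -0.64 with that of the fibroblast markers, values that share libraries and scaling. The part of other cell types in the Cdh1 level was not tested.

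The ratio of Cldn4 to Cldn7 per kb was 10.96, 10.8, 9.64 and 6.72 in Ephb4 control mice given PBS and 12.1, 11.8, 17.0 and 16.7 in those given bleomycin. The groups did not overlap, and the mean log2 ratio was 0.60 higher after bleomycin (exact permutation test, 2-sided, p = 0.0286, the smallest that 4 against 4 allows). After Benjamini-Hochberg adjustment over the 32 tests made (8 ratios in 4 comparisons, chosen after the levels had been seen), p was 0.914 by the same permutation test, and it was the 1 test of the 32 with an unadjusted p under 0.05. In Ephb4 CKO mice the ratio was 7.85 to 12.04 after PBS and 7.19 to 12.8 after bleomycin. The ratio also had a rho of 0.62 with the fibroblast markers and of -0.55 with the macrophage markers over the 17 libraries, and their part was not tested.

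**Figure D2:**
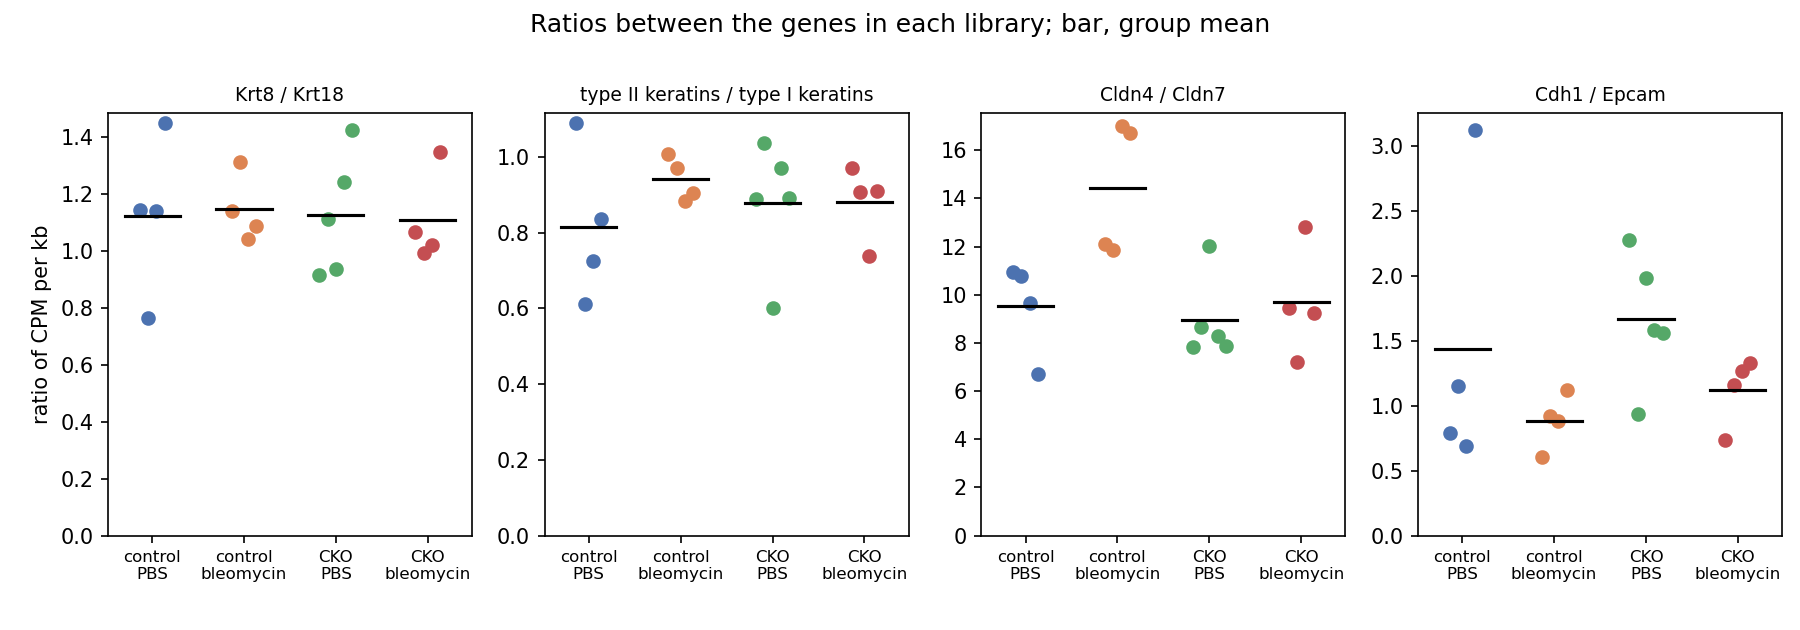
Ratios of CPM per kb between members in each library (points) by group, with the group mean as a bar and the axis from 0. Krt8 to Krt18 stays between 0.764 and 1.45, Cldn4 to Cldn7 lies higher in the 4 Ephb4 control bleomycin than in the 4 Ephb4 control PBS libraries but overlaps with Ephb4 CKO libraries, and Cdh1 to Epcam reaches 3.12 in 1 Ephb4 control PBS library.

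Over the 17 libraries, Spearman's rho between 2 members ranged from 0.87 (Cdh1 with Krt8) to 0.99 (Epcam with Cldn7) in 28 pairs, with a median of 0.96. With each group's mean removed it ranged from 0.93 to 0.99, so the likeness was as high within groups as across them. The points share libraries and scaling, and rho is given as a description. Among the 10481 genes kept, those most like each member were again mostly genes of epithelia. For Epcam they included Cldn7 (rho 0.99) and AI661453 (0.99). Cdh1 was most like Tfcp2l1, a grainyhead-related transcription factor (0.97), Ap1m2, the epithelial clathrin adaptor subunit (0.97), and Rab25, an epithelial recycling GTPase (0.97). Krt7 was most like Cdcp1 (0.98), the epithelial splicing regulator Esrp1 (0.98) and Wnt7b (0.98). Krt8 came closest to its pseudogene Krt8-ps (0.998), the potassium channel gene Kcnk1 (0.99) and the homeobox gene Irx1 (0.98). Krt18 was most like the polarity gene Crb3 (0.99), Esrp1 (0.99) and Arhgef16 (0.99), and Krt19 like Tmc4 (0.97), Arhgef16 (0.97) and Ap1m2 (0.97). Cldn4 was most like Ripk4 (0.99), Adgrg1 (0.99) and Arhgef16 (0.98), and Cldn7 like Epcam (0.99), Cdcp1 (0.99) and AI661453 (0.98).

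A list of 35 other epithelial genes, of which 27 were kept, was compared with Epcam in the same way. In 17 of the 27, rho with Epcam was at least 0.8, against 2.02% of all other genes kept. The filter kept low genes such as Pkp3 (median 2.36 CPM) only through their highest libraries. For Pkp3 the highest was Ephb4 CKO PBS mouse 2 (15.4 CPM), also the highest for Epcam. The filter thus favours genes of the list that peak with Epcam, and its part in the contrast with 2.02% was not tested. The same filter applied to the genes most like each member. Among the closest to Epcam were Itgb6, the integrin subunit that activates TGF-beta on epithelia (0.99), the serine protease St14 and its inhibitor Spint2 (0.99 each), Esrp1 (0.97), the desmosomal gene Pkp3 (0.97) and the epithelial transcription factor Grhl2 (0.97). Itgb6, the gene of the list with the highest mean CPM, was at 205, 47.0, 112 and 12.8 CPM in Ephb4 control PBS, 95.4, 24.3, 34.2 and 34.3 CPM in Ephb4 control bleomycin, 11.8, 242, 69.3, 38.4 and 17.6 CPM in Ephb4 CKO PBS and 62.7, 5.33, 168 and 33.5 CPM in Ephb4 CKO bleomycin libraries. It thus had its highest and lowest values in the same mice as the 8 genes. At the other end, Marveld2 (0.18) and Perp (0.30) followed Epcam least, and F11r (0.58) and Spint1 (0.60) had their highest levels in Ephb4 CKO PBS mouse 1, where the 8 genes were low. The basal and stratified keratins Krt5, Krt14 and Krt15 were at no more than 3 counts in 15, 14 and 15 of the 17 libraries.

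**Figure D3:**
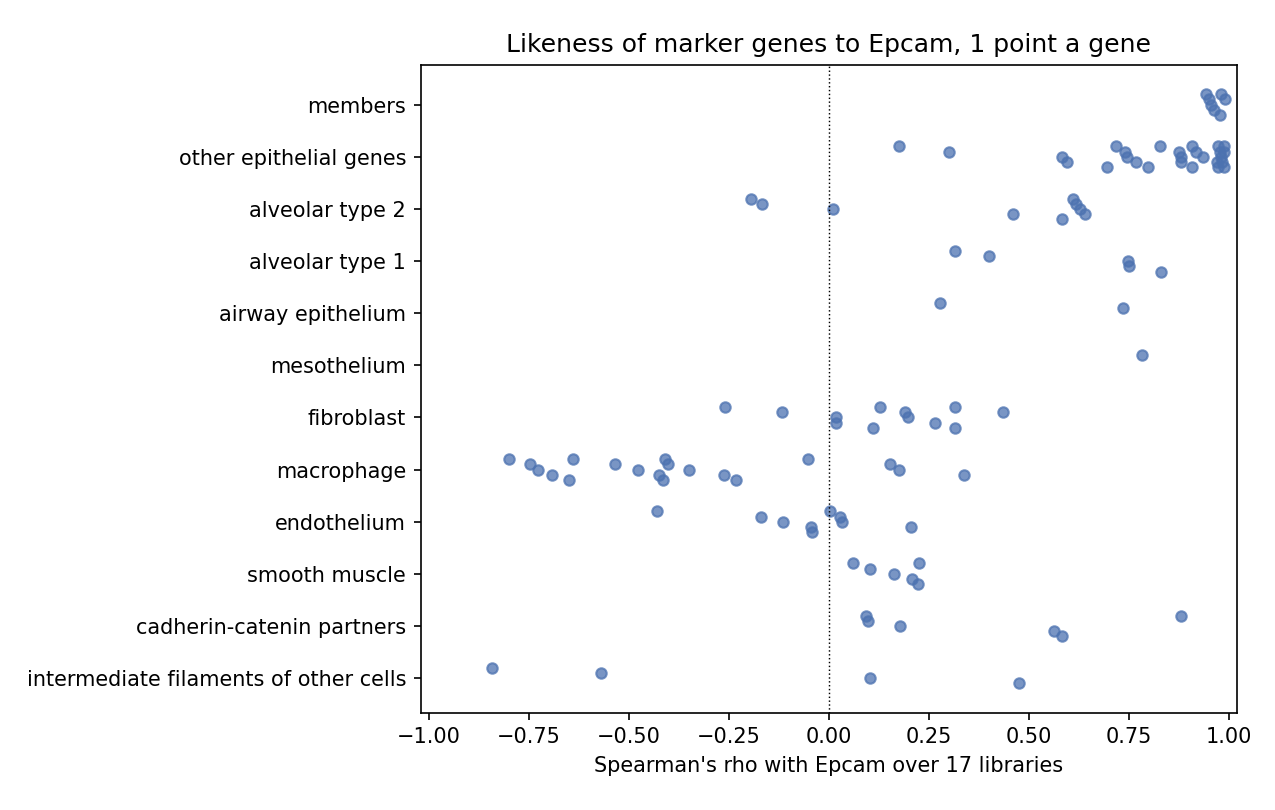
Spearman's rho of each kept marker gene with Epcam over the 17 libraries, 1 point per gene, by list (the top row is the other 7 members). The members lie between 0.94 and 0.99 and most other epithelial genes above 0.8, while the fibroblast genes lie between -0.26 and 0.44 and the macrophage genes between -0.80 and 0.34.

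Most markers of single epithelial types had lower rho with Epcam than the other members did. Of 10 genes of alveolar type 2 cells, which make surfactant, 9 were kept, and 0 had a rho with Epcam of at least 0.8 (-0.19 to 0.64). The surfactant gene Sftpc reached 68.0 CPM in Ephb4 CKO bleomycin mouse 3 and Sftpb 82.1 CPM in Ephb4 control PBS mouse 3, with medians of 5.42 and 2.11 CPM, and Sftpa1 never exceeded 2.97 CPM. In contrast, the lipid transporter gene Abca3 had a median of 55.6 CPM and Lpcat1 one of 29.6 CPM, with rho of -0.17 and 0.64. The summed level of all 10 alveolar type 2 genes was 117 to 266 CPM in Ephb4 control PBS, 90.4 to 213 CPM in Ephb4 control bleomycin, 120 to 347 CPM in Ephb4 CKO PBS and 106 to 427 CPM in Ephb4 CKO bleomycin libraries. Of 6 alveolar type 1 genes, 5 were kept, and Emp2 (0.83, median 37.6 CPM), Ager (0.75) and Aqp5 (0.75) were closest to Epcam. Of 10 airway genes, Foxj1 of ciliated cells (0.73) and Tppp3 (0.28) were kept. The club cell gene Scgb1a1 reached 12.9 CPM, and Scgb3a1, Scgb3a2, Bpifa1 and the basal cell gene Trp63 were at no more than 3 counts in 16, 14, 13 and 12 libraries.

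Mesothelial cells, which cover the lung, also carry keratins, so their markers were examined. Msln, the 1 gene of 11 that was kept, had a rho of 0.78 with Epcam and reached 560.2 CPM in Ephb4 CKO PBS mouse 2 and 386 CPM in Ephb4 control PBS mouse 1, the libraries with the highest keratins. In these libraries the sums over all 11 genes were 561.4 and 386.5 CPM, so nearly all of the list's level was Msln. Upk3b, Lrrn4, Rspo1 and Muc16 were at no more than 3 counts in 11, 12, 11 and 11 of the 17 libraries. Wt1 (27.2 CPM), Bnc1 (12.4 CPM) and Upk1b (12.1 CPM) had their highest values in Ephb4 control bleomycin mouse 1. The summed list was 2.66 to 386 CPM in Ephb4 control PBS, 14.2 to 109 CPM in Ephb4 control bleomycin, 2.57 to 561 CPM in Ephb4 CKO PBS and 6.21 to 96.9 CPM in Ephb4 CKO bleomycin libraries, and its part in the keratin levels was not tested.

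Transcripts of catenins, which bind E-cadherin inside the cell, and of other cadherins had lower rho with Epcam than the other members did. Of 6 cadherin and catenin genes, Jup (plakoglobin) followed Epcam (0.88), and Ctnna1 (0.58) and Ctnnd1 (0.56) did so less closely. Ctnnb1 (beta-catenin), the one with the highest mean CPM, did not (0.09), nor did the mesenchymal cadherins Cdh2 (0.10) and Cdh11 (0.18). Of the 4 intermediate filament genes of other cells that were kept, Vim, of mesenchymal cells and leukocytes, had a rho of -0.84 with Epcam and Lmna, a nuclear lamin, one of -0.57, while Des of muscle was at 0.10 and Nes at 0.47.

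**Figure D4:**
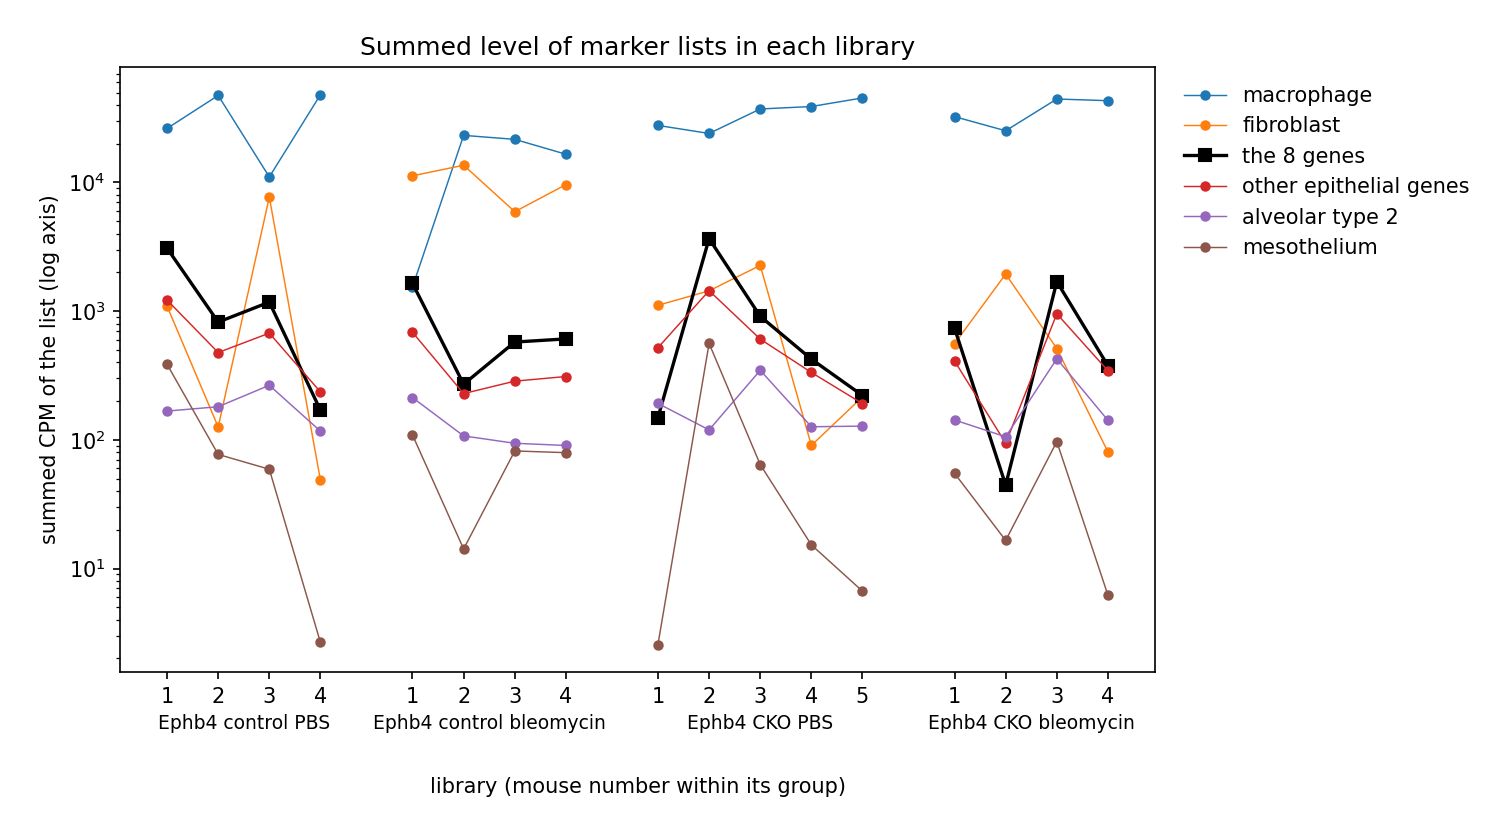
Summed CPM (log axis) of the 8 genes and of 5 marker lists in each library, where lines join the libraries of a group only to guide the eye. The 8 genes span 44.5 to 3661 CPM and are followed by the other epithelial genes, while the macrophage and fibroblast sums have their extremes in other libraries.

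When bleomycin was set against PBS in Ephb4 control (4 versus 4), all 8 genes had negative log2 fold changes, from -1.20 (Krt7) to -0.59 (Krt8), with a median of -0.99 beside -0.06 over all genes tested. None passed the test. In edgeR's quasi-likelihood test, adjusted p ranged from 0.582 to 0.816 with standard errors of 0.94 to 1.26, and 0 of the 8 had an unadjusted p under 0.05, where 14.3% of the 10481 genes tested did. At an adjusted p under 0.05 it was 0 of 8 and 0% of all genes. The ranges overlapped in every member, while 8.82% of all genes did not overlap. Epcam had a log2 fold change of -0.95 (95% interval -3.36 to 1.47) and Krt8, the member with the highest mean CPM, one of -0.59 (-3.01 to 1.83). Of the 27 other epithelial genes, all 27 had negative values (median -0.95). At an unadjusted p under 0.05 there were 2 of them, and 0 had an adjusted p under 0.05 or groups that did not overlap. These 2 included Marveld2 (-1.10, unadjusted p = 0.0197 and adjusted p = 0.320 by edgeR's quasi-likelihood test), whose rho with Epcam (0.18) was the lowest of the list. Over the same groups the 12 fibroblast genes kept all had positive values (median 2.29, 1 at an unadjusted p under 0.05) and 17 of 19 macrophage genes negative ones (median -1.0, 3 at an unadjusted p under 0.05). Napsa of the alveolar type 2 list was at -1.49 (unadjusted p = 0.0118 and adjusted p = 0.315 by edgeR's quasi-likelihood test). Without Ephb4 control PBS mouse 1 the median of the 8 genes was -0.17, and without Ephb4 control bleomycin mouse 1 it was -1.61. Without the 3 libraries at the extremes (Ephb4 CKO PBS mouse 2, Ephb4 control PBS mouse 1 and Ephb4 CKO bleomycin mouse 2) it was -0.17, and Krt8 was at 0.61.

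For Ephb4 CKO versus control after bleomycin (4 versus 4), 3 of the 8 genes had positive and 5 negative log2 fold changes, from -0.42 (Krt8) to 0.55 (Krt19), with a median of -0.15 beside 0.01 over all genes. By edgeR's quasi-likelihood test, 0 of the 8 had an unadjusted p under 0.05 (20.2% of all genes) and 0 an adjusted one (0% of all genes), with adjusted p from 0.777 to 0.956. The ranges overlapped in all 8, against 22.3% of all genes that did not overlap. Epcam was at -0.18 (95% interval -2.58 to 2.22) and Krt8 at -0.42 (-2.84 to 1.99). Of the 27 other epithelial genes, 19 were positive and 8 negative (median 0.23), and 0 had an unadjusted p under 0.05. In the alveolar type 2 list 8 of 9 were positive (median 1.48), of which 2, Napsa and Abca3, had an unadjusted p under 0.05. Napsa, an aspartic protease of type 2 cells that processes surfactant protein, lay 1.87 higher on the log2 scale in Ephb4 CKO (SE 0.53, adjusted p = 0.1965 by edgeR's quasi-likelihood test). It was at 19.8, 13.9, 46.8 and 22.5 CPM in Ephb4 CKO against 8.62, 10.9, 4.93 and 4.62 CPM in Ephb4 control libraries, without overlap. Its rho with Epcam was -0.19. The highest Napsa level of all libraries, 59.4 CPM, was in Ephb4 CKO PBS mouse 1. In Ephb4 CKO bleomycin mouse 2, where Napsa was at 13.9 CPM, 4 genes of the list were at no more than 3 counts. Which cells carried Napsa was not tested. Etv5, a transcription factor gene of the same list, also had groups that did not overlap, in the other direction (-0.75, SE 0.46, adjusted p = 0.339 by edgeR's quasi-likelihood test). The list thus had 2 of 9 genes without overlap, beside 22.3% of all genes. In the same comparison all 12 fibroblast genes were negative (median -2.33, 2 at an unadjusted p under 0.05, 8 without overlap) and all 19 macrophage genes positive (median 1.18, 6 at an unadjusted p under 0.05, 7 without overlap). With the macrophage score in the model the median of the 8 genes was 1.62, and without the 3 libraries at the extremes 0.23, and 0 of the 8 were called in either. Single libraries turned the median, which was 0.62 without Ephb4 control bleomycin mouse 1. Of the Ephb4 CKO bleomycin group, leaving out mouse 2 gave 0.23, mouse 4 gave 0.085 and mouse 3 gave -0.94.

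For Ephb4 CKO versus control after PBS (5 versus 4), all 8 genes had negative values, from -0.63 (Epcam) to -0.07 (Cdh1), with a median of -0.23 beside -0.02 over all genes. In edgeR's quasi-likelihood test 0 of the 8 had an unadjusted p under 0.05 (1.99% of all genes) and 0 an adjusted one (0% of all genes, adjusted p = 1.00 for each of the 8). All 8 overlapped between groups, and 0.191% of all genes did not. Epcam had a 95% interval of -2.89 to 1.63, and Krt8 was at -0.20 (-2.48 to 2.08). Of the 27 other epithelial genes 20 were negative (median -0.16) and 0 had an unadjusted p under 0.05. In this comparison 9 of 12 fibroblast genes were negative (median -1.73, 0 at an unadjusted p under 0.05) and 15 of 19 macrophage genes positive (median 0.42, 2 at an unadjusted p under 0.05), and their part in the values of the 8 genes was not tested. The 2 libraries with the largest sums lay on opposite sides here. Without Ephb4 CKO PBS mouse 2 the median of the 8 was -1.83, and without Ephb4 control PBS mouse 1 it was 0.63. Leaving out mouse 1 or mouse 5 of the Ephb4 CKO PBS group gave 0.052 and 0.046.

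For bleomycin versus PBS in Ephb4 CKO mice (4 versus 5), all 8 genes had negative values, from -0.94 (Cldn7) to -0.27 (Krt19), with a median of -0.64 beside -0.03 over all genes. By edgeR's quasi-likelihood test, 0 of the 8 had an unadjusted p under 0.05 (0.964% of all genes) and 0 an adjusted one (0% of all genes, adjusted p = 1.00 for each of the 8). All 8 overlapped, and 0.0859% of all genes did not. Epcam was at -0.50 (95% interval -2.79 to 1.79) and Krt8 at -0.82 (-3.14 to 1.51). Of the 27 other epithelial genes 22 were negative (median -0.58) and 0 had an unadjusted p under 0.05. In parallel, 9 of 12 fibroblast genes were positive (median 0.52) and 13 of 19 macrophage genes negative (median -0.18), with 0 at an unadjusted p under 0.05 in either list. Without Ephb4 CKO PBS mouse 2 the median of the 8 was 0.78, a change of sign, without Ephb4 CKO bleomycin mouse 3 it was -1.59, and without all 3 libraries at the extremes it was 1.17.

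In the interaction of genotype and bleomycin, which asks if the response to bleomycin differed between Ephb4 CKO and control, 6 of the 8 genes were positive and 2 negative, from -0.23 (Krt8) to 0.89 (Krt19), with a median of 0.26 beside 0.00 over all genes. In edgeR's quasi-likelihood test 0 of the 8 had an unadjusted p under 0.05 (3.46% of all genes) and 0 an adjusted one (0% of all genes), with adjusted p from 0.942 to 0.999. The 95% interval was -2.85 to 3.75 for Epcam and -3.55 to 3.10 for Krt8. The median was -0.61 without Ephb4 control PBS mouse 1, -0.67 without Ephb4 CKO bleomycin mouse 3 and 1.58 without Ephb4 CKO PBS mouse 2. The 4 comparisons share groups of libraries, so their values are not independent of one another.

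**Figure D5:**
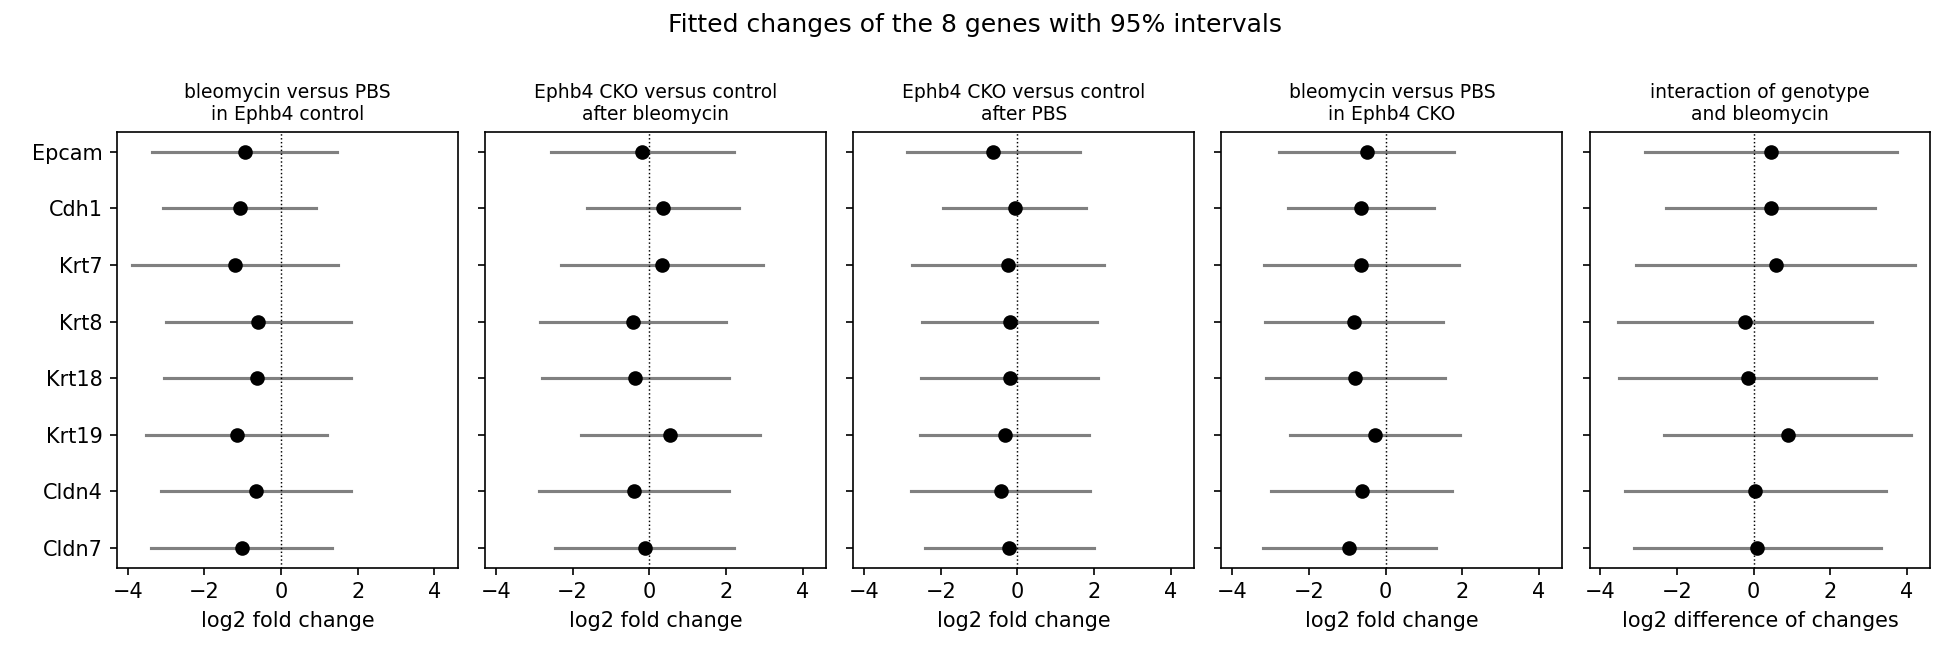
Fitted log2 fold changes of the 8 genes (points) with 95% intervals (lines) in the 4 comparisons and, at the right, the log2 interaction, from edgeR's quasi-likelihood fit. Every interval includes 0, and the intervals reach from -3.88 to 4.21.

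The columns of the count matrix fall into 2 alphabetical runs of 8 and 9 libraries. The direction of most members differed between the runs, except for Ephb4 CKO versus control after PBS. With bleomycin against PBS in Ephb4 control, the mean log2 CPM of all 8 genes was lower after bleomycin in the first run (median difference -1.35, 2 versus 2 libraries), while 7 of 8 were higher in the second (0.46, 2 versus 2). For Ephb4 CKO versus control after bleomycin, all 8 were higher in the first run (0.76, 2 versus 2) and all 8 lower in the second (-2.37, 2 versus 2). After PBS, all 8 were lower in Ephb4 CKO in the first run (-1.21, 2 versus 2) and 6 of 8 in the second (-0.10, 3 versus 2). For bleomycin versus PBS in Ephb4 CKO mice, all 8 were higher in the first run (0.85, 2 versus 2) and all 8 lower in the second (-1.67, 2 versus 3). The animals' numbers also fall into series 11 and 12. Within series 12 all 8 genes were lower in each of these comparisons (median -2.21, -1.79, -2.13 and -2.01 in the same order, with 1 to 4 libraries per group). The Ephb4 control PBS group of this series was mouse 1 alone, with a summed level of 3087 CPM. Its 2 Ephb4 CKO PBS libraries included the highest of all libraries (3661 CPM), and its 2 Ephb4 CKO bleomycin libraries the lowest (44.5 CPM). Series 11 holds both groups only for Ephb4 CKO versus control after PBS (-0.29, all 8 lower, 3 versus 3) and for bleomycin versus PBS in Ephb4 CKO mice (0.88, all 8 higher, 2 versus 3). No test was made within runs or series.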

How the data were processed

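RNA-Seq of cultured lung cells from 17 mice was analysed. The authors trimmed reads with Cutadapt (version 1.18 in the labels, another in the methods), aligned them to GRCm38 with HISAT2 2.1.0 in strand-specific mode, assembled with StringTie and derived gene counts with its script, and the deposited table holds these whole-number counts, not normalized. StringTie estimates the counts from coverage, so near-identical genes may share them. Groups came from the labels.

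Genes with CPM over 10 in at least 2 samples were kept (10481 of 55421). CPM for levels used TMM factors. edgeR 4.0.16 (R 4.3.3) was fitted with a quasi-likelihood test to all 17 libraries, with 1 mean per group, no covariate, and Benjamini-Hochberg adjustment at 0.05 over the genes kept in each comparison. The study's batch numbers per library are not given in the sources used here. A second fit with a wider filter was set aside for members that the filter removed, and none was. Lists were written from general knowledge. The members and lists were chosen with earlier results of these data known. All 8 members are named in every library, and list genes are named where p was under 0.05 with groups apart, or else the most abundant or, by likeness to Epcam, the highest and lowest. Other list genes were chosen after their values were seen. Of the genes most like Epcam, 1 is not reported here. The rho limit of 0.8, the ratios, the 5 motifs and the within-run values were chosen after levels were seen. Lengths came from GENCODE M21 and promoters from RefSeq, copies were sought with blastn 2.17.0, and the fit was tested on simulated counts. The simulated counts had the same set spread for every gene and not that of the 8 genes. They cannot show how large a change in the 8 genes the fit would find. Alternatives were DESeq2 1.42.0, limma voom (limma 3.58.1), RLE, 2 other filters, only the groups compared, covariates (sex, number series, column run, macrophage and fibroblast scores), leaving out 3 libraries with conflicting sex genes, each library, and, added after seeing the data, the libraries at the extremes and a filter on TMM-scaled CPM. Depth was 66540022 to 120554468 counts per library, and p-values measure the spread between mice.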

Additional observations from a re-analysis of the deposited data

Results flagged for a closer look

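On the CPM scale, in 8 of the 32 sets tested (8 genes in 4 groups), 1 library stood apart from the rest of its group by the gap between its value and the next. For normally distributed values chance alone gives such a gap in about 1 of 20 sets, but CPM values are skewed to the right. On log2 CPM 0 of the 32 sets passed the limit (a check added after seeing the data). Since the 8 genes move together, the 8 cases are not separate events and come from 2 libraries. Ephb4 CKO PBS mouse 2 stood apart for Epcam (124.5 CPM, next highest 34.1 CPM), Krt7 (836 CPM, next 163 CPM), Krt8 (972 CPM, next 158 CPM), Krt18 (641 CPM, next 124 CPM), Cldn4 (435 CPM, next 98.7 CPM) and Cldn7 (36.9 CPM, next 6.03 CPM). Cdh1 and Krt19 in the same library were also the highest of their group but did not reach the limit. Ephb4 control bleomycin mouse 1 stood apart for Epcam (75.8 CPM, next highest 23.3 CPM) and Cldn7 (14.6 CPM, next 4.29 CPM). It also had the lowest macrophage sum of all libraries, 1542 CPM. For the interaction of genotype and bleomycin, 0 of the 8 reached an unadjusted p of 0.05 by edgeR.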

How the results depend on the processing

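No paired analysis was possible because the titles give each mouse an identifier of its own, which no mouse of another group shares, and the mouse numbers used here follow accession order. The series of these identifiers was fitted as a covariate. Without its sex letter, the identifier of Ephb4 control PBS mouse 1 is that of Ephb4 CKO bleomycin mouse 2. The same holds for Ephb4 control bleomycin mouse 2 and Ephb4 CKO PBS mouse 2. These libraries and Ephb4 CKO bleomycin mouse 1 share all but the last digit. They include the 3 libraries at the extremes and the 3 with conflicting sex genes. Relatedness of these mice was not tested. Among the alternatives run, and with each library left out, the adjusted p stayed above 0.05 for all 8 genes in all 5 comparisons (lowest 0.449, alternatives other than leaving out 1 library). The median of the 8 genes went from -0.15 to 1.62 with the macrophage score after bleomycin, and from -0.64 to 1.17 without the 3 libraries at the extremes in Ephb4 CKO. Directions were not stable, and the cause was not tested. The macrophage score gave 1 of the 8 genes an unadjusted p under 0.05 for bleomycin versus PBS in Ephb4 control (edgeR's quasi-likelihood test). In that fit 658 of all genes had one. In this comparison the 8 genes ranged from -2.54 to 0.61 over the alternatives other than leaving out 1 library. With the macrophage score, Epcam was at 1.69 and Krt8 at 1.30 for Ephb4 CKO versus control after bleomycin, Epcam at 0.035 for bleomycin versus PBS in Ephb4 CKO, and Krt8 at 1.41 for the interaction. With the number series they were at 0.44 (Epcam) and 0.72 (Krt8) for Ephb4 CKO versus control after bleomycin, and Krt8 at 1.08 for the interaction. With the column run Epcam was at 0.011 and Krt8 at 0.28 in these. Epcam after bleomycin was at 0.32 with the fibroblast score and 0.011 without the 3 libraries of conflicting sex genes. Without the 3 libraries at the extremes, Krt8 was at 0.61 for bleomycin versus PBS in Ephb4 control, Epcam at 0.21 for Ephb4 CKO versus control after bleomycin, Epcam and Krt8 at 1.13 and 1.22 for bleomycin versus PBS in Ephb4 CKO, and Krt8 at 0.61 for the interaction.

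With 1 library left out at a time, Krt8 ranged from -1.24 to 0.61 for bleomycin versus PBS in Ephb4 control, Epcam from -1.06 to 0.58 and Krt8 from -1.08 to 0.20 for Ephb4 CKO versus control after bleomycin, Krt8 from -1.85 to 1.00 for Ephb4 CKO versus control after PBS, Epcam from -1.38 to 0.74 and Krt8 from -1.48 to 0.83 for bleomycin versus PBS in Ephb4 CKO, and Epcam from -0.43 to 1.69 and Krt8 from -1.43 to 1.43 for the interaction. Over all 8 genes, the sign changed in 3 of 112 values in the first comparison, 23 of 112 in the second, 2 of 112 in the third, 12 of 112 in the fourth and 13 of 104 in the interaction, leave-one-out fits aside. In those fits it changed in 3, 13, 21, 9 and 38 of 136 values in the same order. DESeq2 called 166, 399, 1, 1 and 0 of all genes in the 5 comparisons in this order, where edgeR called 0 in each, and 0 of the 8 were among them. The lowest count of a member was 59.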
